A study of Rattus norvegicus with 18 samples.

Results

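The comparison described here set mucosa against detrusor in rat bladders after spinal cord injury (SCI). Its members were chosen by their labels alone, and they are 12 of the 18 libraries of the series, 6 from mucosa and 6 from detrusor. Male wild-type Sprague Dawley rats aged 6 to 7 weeks had the spinal cord cut completely at the midthoracic level, and the injured rats were then injected intraperitoneally every day for 8 weeks with inosine, a purine nucleoside, at 225 mg/kg (SCI-inosine) or with an equal volume of bicarbonate buffer (SCI-vehicle). Each treatment gave 3 mucosa and 3 detrusor libraries. The other 6 libraries, 3 per tissue, came from uninjured rats (Control) and entered only as a reference. The tissues were separated by dissection of the bladder wall, all libraries carry the same batch label, and neither the labels nor the methods tie a library to a rat. The p-values below therefore measure the spread between libraries, and whether same-numbered mucosa and detrusor libraries came from the same bladder is not given in the sources used here.

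The detrusor is the smooth muscle coat of the bladder, which contracts to empty it and relaxes while it fills. The mucosa lines the lumen and consists of the urothelium, a stratified barrier epithelium, and the lamina propria beneath it, a layer of connective tissue with vessels, nerves and immune cells. After SCI the bladder loses its descending control, the wall is known to thicken, and contractions of detrusor become uncoordinated with the outlet. The comparison asks how far the 2 layers still differed in their transcripts under those conditions.

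The deposited table lists 32754 genes by Ensembl rat identifier. No identifier matched a symbol in the reference table used here (0 matched), so the genes are given by identifier or by rank, their functions are not stated, and the tissue labels could not be checked against known urothelial or smooth muscle markers. The labels were instead set against genes that separated the uninjured tissues, as follows. Total counts ranged from 3255012 to 4973121 in injured mucosa and from 5087707 to 6810496 in injured detrusor. The biological coefficient of variation, the spread between libraries beyond counting error, was 19.9% in injured mucosa and 29.1% in injured detrusor when each was fitted alone, so values in detrusor were less precise. Detrusor libraries stood apart in 2 ways, with mucosa-enriched genes raised in SCI-vehicle detrusor replicate 1 and genes of 1 to 4 counts scarce in SCI-inosine detrusor replicate 2. The main counts that moved by over 1.5 times or turned in direction without either library are given with and without it.

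Mucosa-enriched genes were near their Control level in injured mucosa, and detrusor-enriched genes were below theirs in every injured detrusor library. Genes more than 4-fold higher in 1 Control tissue at an adjusted p under 0.05 were taken as enriched in it, and those above 50 CPM there (counts scaled to library size), 315 in mucosa and 342 in detrusor, were read in each injured library as a position between the Control levels, with the other tissue at 0% and the own tissue at 100% (median over genes). For mucosa-enriched genes, the 3 SCI-vehicle mucosa libraries were at 101%, 109% and 111%, and the 3 SCI-inosine mucosa libraries were at 104%, 93.0% and 97.6%. The same genes were at 25.9%, 2.33% and 1.59% in SCI-vehicle detrusor and at 3.94%, 10.2% and 8.56% in SCI-inosine detrusor. All 6 mucosa libraries were above all 6 detrusor libraries, and replicate 1 of SCI-vehicle detrusor was the highest in its tissue. For detrusor-enriched genes, SCI-vehicle detrusor was at 60.6%, 82.1% and 72.7% and SCI-inosine detrusor at 88.9%, 62.7% and 67.4%, all below the Control level, while injured mucosa lay between -1.97% and 10.8%. On this linear scale each of the 12 libraries was nearer to the Control tissue of its own label on both sets of genes. On the log scale SCI-vehicle detrusor replicate 1 was at 53.9% on mucosa-enriched genes, nearer to Control mucosa. In pieces of tissue, fewer cells of a type and less RNA per cell cannot be told apart. The Control libraries chose the genes and set the 0% and 100% marks. Positions under 100% in the own tissue and over 0% in the other can follow in part from that choice. No test was therefore made on these positions.

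**Figure D1:**
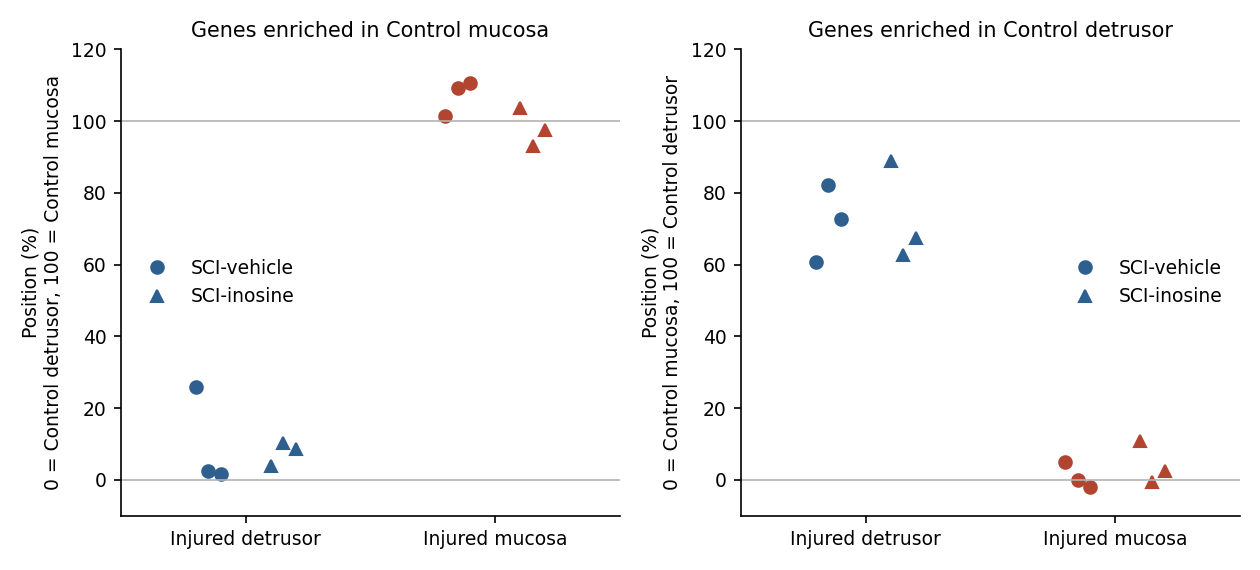
Position of each injured library between the Control tissues (percent, vertical axis) for genes enriched in Control mucosa (left) and in Control detrusor (right), with SCI-vehicle as circles and SCI-inosine as triangles. Injured mucosa sits at 93.0% to 111% on its own genes, injured detrusor at 60.6% to 88.9% on its own, and SCI-vehicle detrusor replicate 1 at 25.9% on mucosa-enriched genes.

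As shares of all counts, the 1526 genes enriched in Control mucosa took 8.52% ± 0.64 (SD, n = 6) of injured mucosa libraries and 1.27% ± 0.55 (SD, n = 6) of injured detrusor libraries. The 768 genes enriched in Control detrusor took 27.4% ± 2.71 (SD, n = 6) of injured detrusor and 5.55% ± 2.01 (SD, n = 6) of injured mucosa. In Control libraries the mucosa-enriched genes took 7.69% to 8.18% in mucosa and 0.571% to 0.707% in detrusor, and the detrusor-enriched genes took 28.4% to 33.7% in detrusor and 2.64% to 6.52% in mucosa. Every injured detrusor library held a larger share of mucosa-enriched genes, 0.860% to 2.30%, than any Control detrusor library. These genes were picked for a low level in Control detrusor relative to Control mucosa. A larger share in other detrusor libraries can follow in part from that choice. Neither set of genes overlapped between the injured tissues, and each difference had an exact two-sided permutation p of 0.00216, the smallest that 6 against 6 libraries (924 splits) allow and the same after adjustment over 9 library measures. These splits take all libraries as unpaired, which the sources do not settle.

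Reads of injured detrusor were concentrated on far fewer genes than reads of injured mucosa. In detrusor, 301 to 459 genes took the upper 50% of all counts, against 942 to 1160 in mucosa. The 10 most read genes of each library took 15.2% ± 1.53 (SD, n = 6) of detrusor counts and 8.03% ± 0.77 (SD, n = 6) of mucosa counts, and the single most read gene took 3.65% ± 0.60 and 1.54% ± 0.31 (SD, n = 6 each). The effective number of genes, the exponent of the Shannon entropy of the counts, was 2102 ± 263 in detrusor and 4366 ± 274 in mucosa (SD, n = 6 each). At an equal depth of 3255012 counts, 17874 ± 117 genes would have had a count in mucosa and 15905 ± 1035 in detrusor (SD, n = 6 each). The 6 libraries of each tissue did not overlap on any of these measures, and the exact two-sided permutation p was 0.00216 for each. Control bladders showed the same order, with 264 to 326 genes taking the upper 50% in detrusor and 944 to 1015 in mucosa. SCI-inosine detrusor replicate 2 was the lowest in genes with a count, at 13896 against 15901 to 16583 in the other injured detrusor libraries at equal depth, and without it the mucosa libraries remained higher by 1567 genes.

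**Figure D2:**
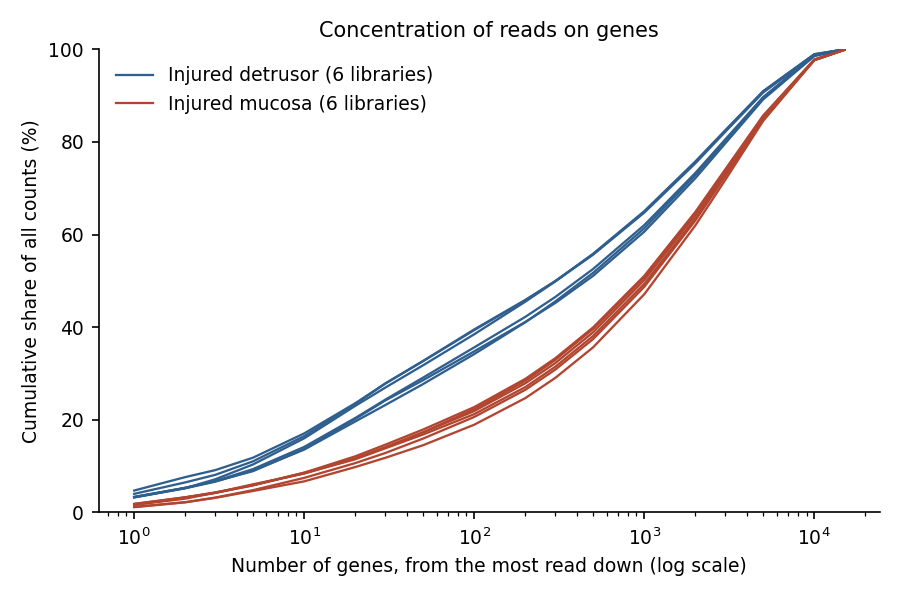
Cumulative share of all counts (percent, vertical axis) against the number of genes counted from the most read down (log scale), with 1 line per injured library. The 6 detrusor lines lie above the 6 mucosa lines, reaching 34.2% to 39.5% at 100 genes against 18.9% to 22.7% in mucosa.

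The most read genes were in part shared. Among the 10 with the highest mean in each injured tissue, 4 were common to both, and among the 100 highest, 57 were. Of the detrusor 100, 83 were called higher in detrusor and 4 higher in mucosa by the test described next. Of the mucosa 100, 28 were called higher in mucosa and 43 higher in detrusor. This order held with TMM scaling, the scaling used below, and turned to 44 higher in mucosa and 28 higher in detrusor when counts were scaled by library totals alone, whereas in the detrusor 100 it was then still 71 higher in detrusor against 10.

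Gene by gene, most genes tested differed between the injured layers. Genes were tested where at least 3 of all 18 libraries exceeded 1 CPM, which left 15740. Among them, edgeR's quasi-likelihood test with treatment as a factor called 9150 (58.1%) at a Benjamini-Hochberg adjusted p under 0.05, of which 5064 (32.2%) were higher in mucosa and 4086 (26.0%) higher in detrusor. More than 4-fold differences were called in 1351 genes higher in mucosa (8.58%) and 667 higher in detrusor (4.24%), and more than 16-fold differences in 128 (0.813%) and 51 (0.324%). Beyond 64-fold the numbers were 7 (0.0445%) and 8 (0.0508%). The largest differences moved with single libraries. Without SCI-vehicle detrusor replicate 1, 347 genes were past 16-fold and 31 past 64-fold toward mucosa, and without SCI-inosine mucosa replicate 1, 88 were past 16-fold toward detrusor, a number that was 90 when every gene with a count was tested. The median absolute log2 fold change over all genes was 0.63. In 5715 genes (36.3%) the 6 mucosa and 6 detrusor libraries did not overlap, 3057 with mucosa above (19.4%) and 2658 with detrusor above (16.9%).

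The balance of calls between the tissues was near even, and its majority was not settled. TMM scaling, used throughout, centred most genes near 0 (median log2 fold change 0.13), and 55.3% of calls were higher in mucosa. Without any 1 of the 6 detrusor libraries it was 48.7% to 49.4% in 5 of the 6 cases, and 4408 calls against 4404 without SCI-inosine detrusor replicate 1. The calls were 4278 against 4417 without SCI-vehicle detrusor replicate 1 and 4686 against 4838 without SCI-inosine detrusor replicate 2. Without any 1 mucosa library the share was 54.4% to 55.0%, and with every gene with a count tested it was 49.0%. With scaling by library totals alone, chosen after seeing the data, the median moved to 0.60, 10659 genes were called, and 80.4% of them (8567 against 2092) were higher in mucosa. More than 4-fold differences were then 2073 and 416. Directions of small differences are thus relative to the median gene, whereas the counts past 4-fold were higher in mucosa under both scalings.

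**Figure D3:**
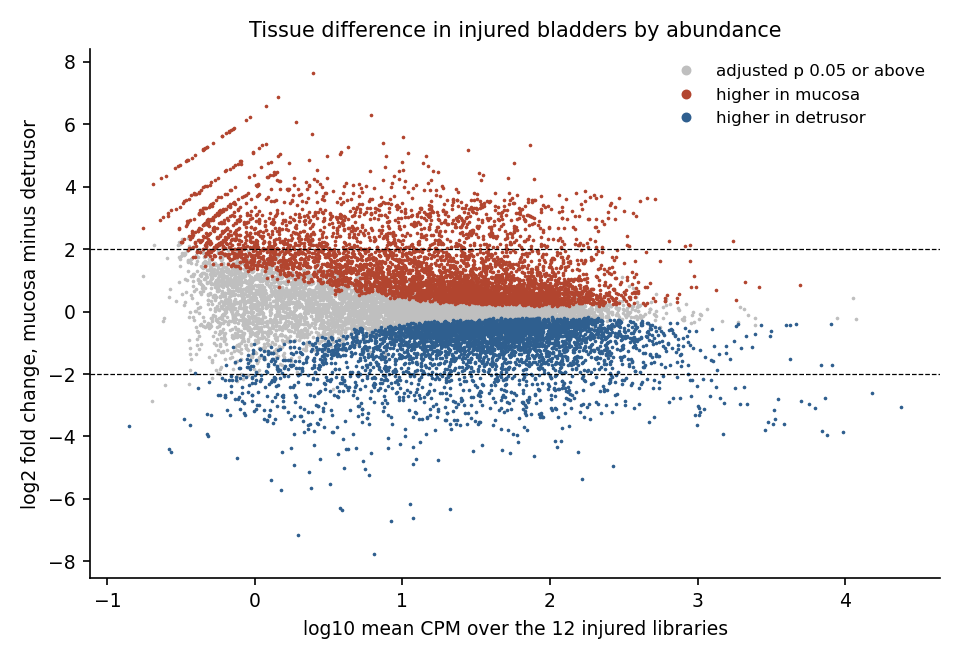
log2 fold change of mucosa minus detrusor in injured bladders (vertical axis) against log10 of the mean CPM (horizontal axis), 1 point per gene tested, with genes called higher in mucosa in red, in detrusor in blue and uncalled genes in grey, and dashed lines at 4-fold. Low-abundance genes lie mostly on the mucosa side, whereas calls higher in detrusor become more frequent among abundant genes.

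With TMM scaling, calls higher in detrusor rose with abundance and calls higher in mucosa did not. Of the 3935 genes with the lowest mean CPM (median 1.38 CPM), 33.2% were called higher in mucosa and 10.4% higher in detrusor. Of the 3935 genes with the highest (median 99.6 CPM), these shares were 29.8% and 40.9%. More than 4-fold differences toward mucosa were 19.8% of the lowest and 2.31% of the highest group, while those toward detrusor were 5.64% and 4.22%. The lowest group holds genes that passed the minimum only through the tissue where they were high, so its shares describe a filtered set.

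A similar level in both layers, relative to the TMM scaling, was also measurable. For 3135 genes (19.9%) the 95% interval of the fold change lay within 1.5-fold in either direction, and 599 of these were called, with small differences. A further 4054 genes (25.8%) were neither called nor held within 1.5-fold, so at this depth and spread they were undecided. When counts were scaled by library totals alone, 2304 genes were held within 1.5-fold, and the median log2 fold change of all genes was 0.60. Similarity here thus depends on the scaling. Tissue accounted for a median of 49.7% of a gene's variance in log2 CPM over the 12 libraries, treatment for 2.41%, their interaction for 1.75% and the spread within groups for 38.9%. It accounted for more than 50% of the variance in 7837 genes (49.8%), against 51 genes (0.324%) for treatment.

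Few genes were near 0 throughout 1 layer and well expressed in the other. In injured mucosa 9900 genes reached a mean of 10 CPM, in injured detrusor 9503, and 8832 did so in both. A mean of at least 10 CPM in mucosa with less than 1 CPM in every detrusor library was found for 1 gene, and the reverse for 5 genes. In Control bladders these numbers were 97 and 18, with 3 instead of 6 libraries that had to be under 1 CPM. Without SCI-vehicle detrusor replicate 1, 16 genes met the mucosa criterion, without SCI-inosine detrusor replicate 2, 2 genes did, and without SCI-inosine mucosa replicate 1, 10 genes met the detrusor criterion. The numbers were thus set in part by single libraries.

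The genes named were those with the largest differences among called genes without overlap and with a mean of at least 10 CPM in the higher tissue. ENSRNOG00000036631 led the mucosa side. It had 8.19, 8.37 and 20.9 CPM in SCI-vehicle mucosa and 6.24, 10.2 and 18.4 CPM in SCI-inosine mucosa. In detrusor it had 0, 0.195 and 0 CPM under vehicle and 0.357, 0 and 0.213 CPM under inosine. Every mucosa library was therefore at least 6.24 CPM and no detrusor library exceeded 0.357 CPM. The log2 fold change was 6.31 (SE 0.58, edgeR adjusted p = 1.45e-06), resting on 343 counts in mucosa and 4 in detrusor. In Control it was also higher in mucosa, by 4.72 (SE 0.62), with 12.1 to 19.6 CPM in mucosa and 0.293 to 0.727 CPM in detrusor.

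ENSRNOG00000003468, second on the mucosa side, had 19.4, 19.2 and 11.5 CPM in SCI-vehicle mucosa and 12.2, 19.1 and 36.4 CPM in SCI-inosine mucosa. Its detrusor levels were 1.07, 0.195 and 0 CPM under vehicle and 0.535, 0 and 0.638 CPM under inosine. SCI-inosine mucosa replicate 3 stood above the other mucosa libraries, and the highest detrusor library was SCI-vehicle replicate 1. The log2 fold change was 5.58 (SE 0.51, edgeR adjusted p = 1.39e-06). The Control difference was 6.63 (SE 0.84), and the interval of the change with injury included 0 (interaction -1.06, SE 1.36).

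ENSRNOG00000013074 led the detrusor side. It had 8.55, 26.9 and 15.7 CPM in SCI-vehicle detrusor and 8.74, 7.24 and 9.78 CPM in SCI-inosine detrusor. In injured mucosa it was at 0 in 5 of 6 libraries and at 0.255 CPM, a single count, in SCI-inosine replicate 2. The ratio of detrusor to mucosa from 400 counts against 1 was 366, with a counting interval of 65.3 to 14496.5 at 95% (exact, scaled by effective library size, counting error only). The edgeR adjusted p was 3.77e-07. In Control detrusor it had 2.58 to 17.5 CPM and in Control mucosa 1 count in all.

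**Figure D4:**
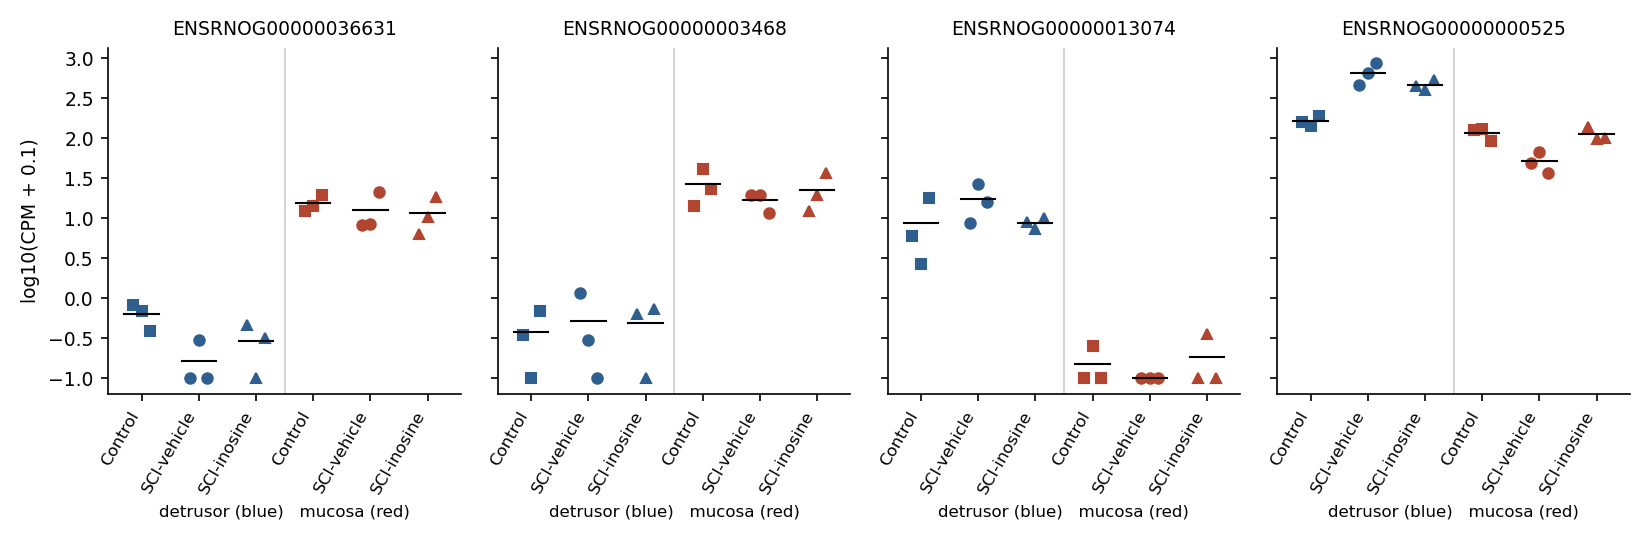
log10(CPM + 0.1) of the 4 genes named by identifier in each of the 18 libraries (points; bars mark the log of the group mean), with detrusor in blue on the left and mucosa in red on the right of each panel. The first 3 genes separate the tissues in every condition, and ENSRNOG00000000525 separates them in injured libraries, at 403 to 856 CPM in detrusor and 36.3 to 138 CPM in mucosa.

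The remaining genes of the leading lists were less even. Among the 10 leading genes on the mucosa side, 7 had their highest injured detrusor level in SCI-vehicle replicate 1. The fourth had 76.9 to 208 CPM in injured mucosa, 14.8 CPM in that library and 0 to 3.87 CPM in the other 5 detrusor libraries. The tenth had 58.5 to 176 CPM in mucosa, 13.7 CPM in that library and 0.168 to 5.74 CPM in the others. On the detrusor side the most abundant of the 10 was the eighth, with 430 to 651 CPM in detrusor and 4.57 to 46.0 CPM in mucosa, where SCI-inosine replicate 1 was the highest. The fifth had 105 to 707 CPM in detrusor and 0.599 to 29.1 CPM in mucosa, where the same mucosa library was again the highest. All 20 leading genes had the same direction in Control as in injured bladders. Their direction in SCI-vehicle and SCI-inosine was fixed by the requirement of no overlap. Of the 1351 and 667 genes called more than 4-fold higher in injured mucosa and detrusor, 14 and 7 had the opposite sign in Control.

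The tissue difference was read separately in the treatments, which asks whether inosine changed the contrast between layers. In SCI-vehicle, 6789 genes (43.1%) were called, 3587 (22.8%) higher in mucosa and 3202 (20.3%) in detrusor. In SCI-inosine, 6046 genes (38.4%) were called, 3165 (20.1%) and 2881 (18.3%). The larger share on the mucosa side turned in both treatments without any 1 of the 6 detrusor libraries, to 40.6% to 47.4% of calls higher in mucosa in SCI-vehicle and 44.0% to 47.9% in SCI-inosine. Without SCI-vehicle detrusor replicate 1 the calls were 2966 against 3575 and 2812 against 3073, and without SCI-inosine detrusor replicate 2 they were 3750 against 4155 and 2483 against 3161. Of the calls with all libraries, 5093 were called in both with the same sign, 75.0% of the SCI-vehicle calls and 84.2% of the SCI-inosine calls, and 0 were called with opposite signs (1 with the replicate number as a block, 3 with scaling by library totals). The 2 sets of log2 fold changes, which share no library, had a Pearson r of 0.85 across genes, given as a description since genes are not independent. Their median absolute difference was 0.26.

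No gene passed the test of the difference between the treatments. The tissue-by-treatment interaction called 0 genes with edgeR (smallest adjusted p 0.9999), 485 genes (3.08%) had an unadjusted p under 0.05, and DESeq2 called 1. With 3 libraries per group this does not show that the tissues responded alike. More than 16-fold differences toward mucosa numbered 128 in SCI-vehicle (0.813%) and 298 in SCI-inosine (1.89%), but without SCI-vehicle detrusor replicate 1 the SCI-vehicle number was 543 and the SCI-inosine number 273, so the order turned with 1 library. Toward detrusor they numbered 85 (0.540%) and 43 (0.273%), and without SCI-inosine mucosa replicate 1 the SCI-inosine number was 115, which also turned the order.

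Injured bladders largely kept the tissue contrast of uninjured ones. In Control, 7003 genes (44.5%) were called, 3666 (23.3%) higher in mucosa and 3337 (21.2%) higher in detrusor, in a model of all 18 libraries. Without SCI-inosine detrusor replicate 2 in that model they were 3729 and 3975. Of the Control calls, 5939 were called the same way in injured bladders, which is 84.8% of the Control calls and 64.9% of the injured calls, made with 6 rather than 3 libraries per tissue. Opposite calls were 19, none with an injured log2 fold change beyond 0.84. More than 4-fold enrichment in both conditions held for 992 genes in mucosa and 519 in detrusor, and 0 genes were more than 4-fold enriched in opposite tissues. Across all genes the log2 fold changes of Control and injured bladders, which share no library, had a Pearson r of 0.87.

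Of the 1526 genes enriched in Control mucosa (9.70% of those tested), 1395 (91.4%) were called higher in mucosa after injury and 992 (65.0%) remained past 4-fold, against a background of 32.2% and 8.58% of all genes. Of the 768 enriched in Control detrusor (4.88%), 707 (92.1%) were called higher in detrusor after injury and 519 (67.6%) remained past 4-fold, against 26.0% and 4.24%. None of either set was called in the opposite direction.

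The differences of these genes were smaller in injured bladders. The median log2 fold change of the mucosa-enriched genes was 3.21 in Control and 2.43 in injured bladders, 2.41 in SCI-vehicle and 2.51 in SCI-inosine. Without SCI-vehicle detrusor replicate 1 their injured median was 2.60. For the detrusor-enriched genes the median toward detrusor was 3.12 in Control and 2.37 in injured bladders, 2.57 in SCI-vehicle and 2.25 in SCI-inosine. Genes picked for a large value in Control read lower elsewhere by that choice alone, so the choice was also turned around. The 1351 genes more than 4-fold higher in injured mucosa had a median of 2.81 there and 3.35 in Control. The 667 genes of injured detrusor had 2.69 there and 3.16 in Control. With all libraries, 3 per tissue in Control and 6 in injured bladders, the Control difference was thus larger whichever condition chose the genes. Among the 992 and 519 genes past 4-fold in both, medians were 4.04 in Control against 2.94 in injured bladders for mucosa and 3.48 against 2.82 for detrusor. Over all genes, by contrast, the median absolute log2 fold change was 0.63 in both conditions.

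Differences past 16-fold were fewer in injured bladders than in Control. More than 16-fold differences were called in 556 genes toward mucosa (3.53%) and 186 toward detrusor (1.18%) in Control, against 128 and 51 in injured bladders. Control had 3 libraries per tissue and injured bladders 6. Both Control sets were picked for a large Control value, so their medians read lower elsewhere by that choice alone. At 16-fold the choice was not turned around. The 556 genes had a median log2 fold change of 5.21 in Control. After injury their median was 2.97 with vehicle and 3.69 with inosine. Without SCI-vehicle detrusor replicate 1, which carried the highest level of mucosa-enriched genes of any detrusor library, the SCI-vehicle median was 4.81, the injured median went from 3.21 to 4.00, and 347 genes instead of 128 were past 16-fold toward mucosa. In SCI-vehicle alone 128 genes were past 16-fold toward mucosa with that library and 543 without it, against 556 in Control, so in SCI-vehicle the lower number rested on it. In SCI-inosine, which does not hold that library, 298 genes were past 16-fold toward mucosa. The median toward detrusor of the 186 detrusor genes was 4.61 in Control and after injury 3.44 with vehicle and 3.13 with inosine. Single mucosa libraries moved these medians, to 5.89 in Control without Control mucosa replicate 1 and to 3.94 with inosine without SCI-inosine mucosa replicate 1. The part that the dissection of single bladders had in these differences was not tested.

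**Figure D5:**
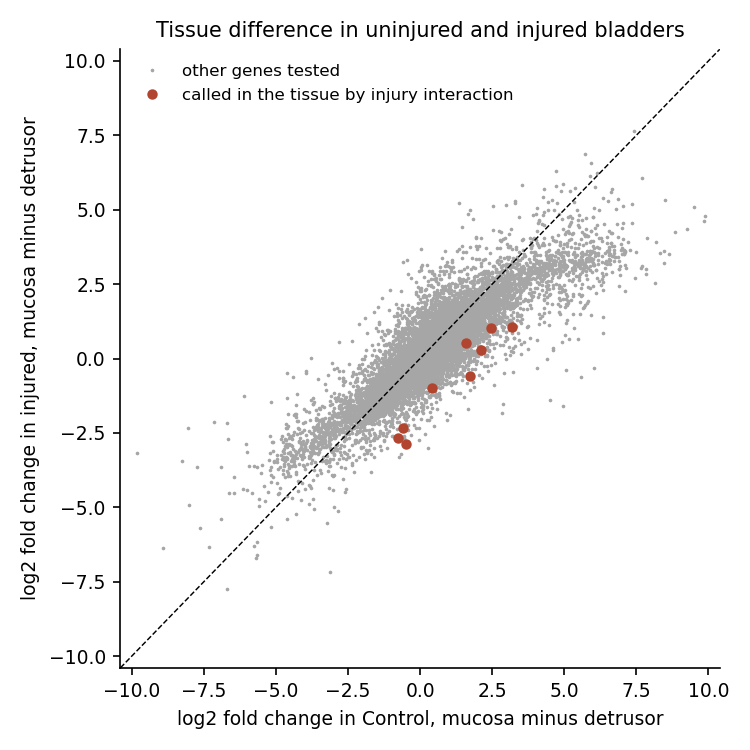
log2 fold change of mucosa minus detrusor in injured bladders (vertical axis) against the same in Control (horizontal axis), 1 point per gene tested, with the line of equality dashed and the 9 genes called in the tissue-by-injury interaction in red. Most genes past 16-fold in Control mucosa lie below the line, with a median of 5.21 in Control and 3.21 in injured bladders. They were picked for their Control value and read lower elsewhere by that choice alone.

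The change in the tissue difference with injury was tested gene by gene. The tissue-by-injury interaction called 9 genes (0.0572%) with edgeR, all with a mucosa-minus-detrusor difference that was lower after injury. At an unadjusted p under 0.05 there were 2026 genes (12.9%), 894 (5.68%) with a higher and 1132 (7.19%) with a lower difference. The number called was unstable, from 0 without Control detrusor replicate 2 to 91 without Control detrusor replicate 3, and DESeq2 called 239. The shared direction was not stable either. Of the DESeq2 calls 61 had a higher difference after injury, as had 4 of the 7 edgeR calls without Control mucosa replicate 1.

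In 8 of the 9 genes all 6 injured detrusor libraries lay above all 3 Control detrusor libraries, and in 4 of the 9 all 6 injured mucosa libraries lay below all 3 Control mucosa libraries. The interaction picked these genes from the same libraries, so such gaps follow in part from that choice. The share of all genes with such gaps was not computed. The leading gene, ENSRNOG00000000525, had 158, 142 and 189 CPM in Control detrusor. It had 466, 658 and 856 CPM in SCI-vehicle detrusor and 453, 403 and 533 CPM in SCI-inosine detrusor. Control mucosa had 125, 129 and 92.5 CPM of it. Among injured mucosa libraries, those given vehicle had 49.3, 67.5 and 36.3 CPM and those given inosine 138, 96.6 and 100.2 CPM. Every injured detrusor library was above every Control detrusor library, whereas in mucosa SCI-vehicle libraries were the lowest and SCI-inosine libraries overlapped with Control. Its log2 tissue difference was -0.50 (SE 0.24) in Control, not called (edgeR adjusted p = 0.103), and -2.86 (SE 0.31, adjusted p = 4.92e-06) in injured bladders. The interaction was -2.37 (SE 0.30, adjusted p = 0.00774), and without Control detrusor replicate 2 it was -2.28 with an adjusted p of 0.0847. Between the treatments the difference was -3.69 (SE 0.28) in SCI-vehicle and -2.05 (SE 0.26) in SCI-inosine, an interaction of 1.64 (SE 0.36) that did not pass adjustment over all genes (edgeR adjusted p = 0.9999).

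The other 8 genes fell into 3 patterns. The genes ranked sixth and eighth by p were, like the first, under 2-fold apart in the Control layers (log2 differences -0.75 and -0.60, here called, at edgeR adjusted p = 0.0243 and 0.0483) and well apart in injured bladders (-2.68 and -2.32). The sixth had 36.8 to 74.7 CPM in injured detrusor against 21.8 to 35.1 in Control detrusor, and 7.53 to 10.7 CPM in injured mucosa against 16.8 to 19.9 in Control mucosa. The eighth had 111 to 169 CPM against 48.0 to 94.2 in detrusor, and 16.1 to 37.5 CPM against 37.7 to 55.9 in mucosa. In both, detrusor was higher and mucosa lower than any Control library of the tissue.

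The third and the seventh gene crossed from a higher mucosa mean to a higher detrusor mean. The seventh had a difference of 1.73 in Control and -0.60 in injured bladders (edgeR adjusted p = 0.000355 and 0.0451), with 42.3 to 157 CPM in injured detrusor against 17.0 to 27.2 in Control detrusor and 44.0 to 84.7 CPM in injured mucosa against 65.0 to 78.5 in Control mucosa. In the other of the pair, the third, it went from 0.42 in Control (adjusted p = 0.0621, not called) to -0.98 in injured bladders, with 968 to 1404 CPM in injured detrusor against 551 to 799 and 469 to 700 CPM in injured mucosa against 874 to 957.

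The 4 others were higher in Control mucosa and less so after injury. The second went from 2.12 to 0.27, which was not called in injured bladders (edgeR adjusted p = 0.142), with 89.9 to 164 CPM in injured detrusor against 35.4 to 48.0 in Control detrusor. The fourth went from 1.60 to 0.52, the fifth from 3.20 to 1.06 and the ninth from 2.45 to 1.04. The fifth was the exception in detrusor, where its injured level of 3.93 to 10.0 CPM overlapped with the Control level of 2.18 to 4.09, and its injured mucosa level of 10.7 to 22.8 CPM was below the 23.7 to 29.8 of Control mucosa.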

How the data were processed

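Ribosomal RNA was depleted from total RNA, stranded libraries were sequenced as paired-end reads, and the authors added up both flow cells per sample. The submitters' processing notes name FastQC 0.11.9, MultiQC 1.13, Trim Galore 0.6.10, STAR 2.7.10a, SAMtools 1.17, featureCounts 2.0.3 and the build Rnor_6.0. The strand setting and annotation release are not given in the sources used here. The values deposited by the authors are raw counts per gene, whole numbers without normalization, with 0 columns unused and 0 entries without a gene.

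Counts were scaled by TMM and tested with edgeR 4.0.16 (quasi-likelihood F test, R 4.3.3), after tests on simulated data, with treatment and tissue as terms over the 12 injured libraries. Treatments were read in a model of 4 groups, and Control and the tissue-by-injury interaction in a model of 6 groups over 18 libraries. P-values were adjusted over all 15740 genes tested. CPM were scaled by effective library size. Library measures were compared by exact two-sided permutation (scipy 1.17.1), with the libraries taken as unpaired. With 3 libraries per group, the spread between libraries sets the precision, and intervals of counts cover counting error only.

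The genes named were the 10 with the largest difference on each side and the leading interaction genes, and at most 2 per side were printed by identifier. The fixed lists of cell type markers and pathways could not be run without symbols. The comparison and the lists were chosen with earlier results of these data known, while the members followed from the labels. Alternatives were DESeq2 1.42.0 and its size factors, library totals, other filters and thresholds, a replicate block, no treatment term, other sets of libraries in the model, and leaving out each library.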

Additional observations from a re-analysis of the deposited data

Results flagged for a closer look

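In each injured tissue, 6 libraries were examined for 1 that stood apart by Dixon's criterion, for 32 sets of values in all, and 5 were found. Chance alone would give such a finding in about 1 of 20 sets. ENSRNOG00000003468 was at 36.4 CPM in SCI-inosine mucosa replicate 3 and at 11.5 to 19.4 CPM in the other injured mucosa libraries. ENSRNOG00000013074 was at 0.255 CPM in SCI-inosine mucosa replicate 2, a single count, and at 0 in the others.

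SCI-inosine detrusor replicate 2 had 14126 genes with a count against 16911 to 17842 in the other injured detrusor libraries, and 13896 against 15901 to 16583 at equal depth. It held 338 genes with exactly 1 count and 674 with 1 to 4 counts, where the other 11 injured libraries held 1423 to 1767 and 3217 to 3806. Its 12974 genes with at least 10 counts lay within the 12537 to 13493 of the others. The source of this shortage was not tested, and without it 9524 genes were called in the tissue comparison.

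SCI-vehicle detrusor replicate 1 was at 25.9% of the distance to Control mucosa on mucosa-enriched genes, against 1.59% to 10.2% in the other injured detrusor libraries. Without it the number of genes more than 16-fold higher in mucosa was 347 instead of 128.

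The tissue difference itself changed with injury in 9 genes by the interaction test of edgeR (smallest adjusted p 0.00774), all lower after injury.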

How the results depend on the processing

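For 63 results, 1169 recomputed values were obtained in all, of which 1023 stayed within the limits set, 145 moved beyond them and 1 was weaker. A reversal of sign was scored for 0 values. Many results are counts of genes, which cannot change sign, and a turned majority of calls was not scored as a reversal. The fold changes of the 4 genes named by identifier were called under every alternative run, and the interaction of ENSRNOG00000000525 under all but 1. With calls also required to pass 4-fold, 2018 genes were called in injured bladders (1351 and 667), 1887 in SCI-vehicle, 1737 in SCI-inosine, 2294 in Control and 3 in the tissue-by-injury interaction. Without adjustment and beyond a log2 fold change of 0.5, there were 452 genes in the tissue-by-treatment and 1626 in the tissue-by-injury interaction. DESeq2 called 1 and 239. Scaling by library totals gave 8567 and 2092 genes on the mucosa and detrusor sides and 25 in the tissue-by-injury interaction, and testing every gene with a count gave 46. The filterByExpr filter of edgeR left 47.9% of 8548 calls on the mucosa side and 74 genes past 16-fold there. On the log scale of position, injured detrusor was at a median of 24.1% on mucosa-enriched genes in place of 6.25%, and at 87.3% in place of 70.0% on its own.

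Leaving out 1 library each gave 8233 to 9524 calls in injured bladders and 0 to 91 in the tissue-by-injury interaction, which was 31 without SCI-vehicle detrusor replicate 1, 46 without SCI-inosine detrusor replicate 1, 17 without SCI-vehicle mucosa replicate 2, and 5 or fewer without SCI-vehicle detrusor replicate 3, SCI-inosine detrusor replicate 3, SCI-vehicle mucosa replicate 1, SCI-inosine mucosa replicate 2, Control mucosa replicates 2 and 3 or Control detrusor replicates 1 and 2. It left 0 calls in the tissue-by-treatment interaction each time.

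The replicate numbers are shared across tissues, but nothing in the labels says that they mark an animal. Deviations of same-numbered injured libraries correlated at 0.00559 to 0.233 (median 0.085, 3 of 6 pairs over 0.1), and 4 of 6 were highest with their own number. Differently numbered injured libraries of the same treatment correlated at -0.241 to 0.115 (median -0.044). In Control the same-numbered values were 0.121, 0.144 and 0.0452, each the highest for its detrusor library. With the replicate block, 8851 genes were called in injured bladders and 17 in the tissue-by-injury interaction, and genes called with opposite signs in the treatments went from 0 to 1. No other count of calls moved by more than 1.5 times.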
